A study of Mus musculus with 4 samples.

Results

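Neuroblasts were taken from single-cell RNA sequencing of mouse brain hemispheres after stroke as the cells with at least 4 unique molecular identifiers (UMIs, counted RNA molecules) from at least 2 of the 6 genes Dcx, Sox11, Dlx1, Dlx2, Igfbpl1 and Dlx6os1. Cells also had to have no UMI of the leukocyte gene Ptprc, at most 3 UMIs of Mag, Mog and Mobp, at most 2 UMIs of P2ry12, Tmem119, P2ry13, Gpr34, Olfml3 and Fcrls, and at most 1 UMI of Aqp4 and Gja1. The rule kept 1539 of the 55902 cells that passed quality limits of 500 or more UMIs, 300 or more detected genes and no more than 20% of UMIs from mitochondrial genes. These were 255 of 14325 cells in IL-4/C1q EV, 231 of 14978 in IL-1a/TNFa/C1q EV, 207 of 12766 in UT EV and 846 of 13833 in MAPS.

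All mice were wild type and had an ischemic stroke, and hydrogel microspheres were placed in the infarct cavity on day 5, with the hemisphere on the stroke side dissociated on day 14. IL-4/C1q EV stands for the label IL-4 C1q EV+MAPS, IL-1a/TNFa/C1q EV for IL-1a TNFa C1q EV+MAPS and UT EV for UT EV+MAPS, in which MAPS microspheres carried extracellular vesicles of astrocytes. MAPS is the library with no vesicles named in its label. The labels give neither the ages nor the number of animals behind a library, and they do not spell out UT. Each of the 4 groups had 1 library, so differences between groups have no replicates behind them, and treatment and library cannot be told apart. All intervals are 95% intervals that cover counting error only, and no test was run.

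Neuroblasts are young neurons that still migrate. In the adult mouse brain most arise in the subventricular zone of the lateral ventricle, where astrocyte-like stem cells give rise to transit-amplifying cells and these to Dcx-expressing neuroblasts, which move along the rostral migratory stream to the olfactory bulb and become GABAergic interneurons. After an ischemic stroke some leave this path and move towards the damaged striatum or cortex. Dlx and Sp transcription factors set the GABAergic fate, and tubulins, doublecortin and stathmins form or regulate the microtubules of the moving cell.

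Before filtering, the libraries held 13076 to 15138 barcodes, 43 to 64 of which were shared by any 2 libraries (0.329% to 0.453% of the smaller one), and no neuroblast barcode was shared. Kept cells had a median of 2480 UMIs in IL-4/C1q EV, 2608 in IL-1a/TNFa/C1q EV, 2674 in UT EV and 4557 in MAPS. Barcodes began at 1233 UMIs for IL-1a/TNFa/C1q EV but at 500 for every other library. Doublets were called but kept, and they were 9, 12, 6 and 4 of the neuroblasts of IL-4/C1q EV, IL-1a/TNFa/C1q EV, UT EV and MAPS. The MAPS library stood apart from the others. The share of neuroblast UMIs from ribosomal protein genes was 12.6% in IL-4/C1q EV, 13.6% in IL-1a/TNFa/C1q EV, 12.8% in UT EV and 7.44% in MAPS. The ribosomal RNA gene Rn18s-rs5 had 24216, 19653 and 21295 counts per 1000000 UMIs (CPM) in the neuroblasts of the same 3 EV libraries and 1635 CPM in those of MAPS, and the other kept cells of MAPS had 2252 CPM. How far such library-wide differences enter a comparison with MAPS was not tested.

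Under the main rule neuroblasts were a similar share of cells in the 3 EV libraries and a larger one in MAPS. They made up 1.78% of kept cells in IL-4/C1q EV (1.57% to 2.01%), 1.54% in the IL-1a/TNFa/C1q EV library (1.35% to 1.75%), 1.62% in UT EV (1.41% to 1.86%) and 6.12% in MAPS (5.72% to 6.53%). The ratio of shares was 1.098 for IL-4/C1q EV over UT EV (0.910 to 1.33), 0.951 for IL-1a/TNFa/C1q EV over UT EV (0.785 to 1.15) and 1.15 for IL-4/C1q EV over IL-1a/TNFa/C1q EV (0.962 to 1.39). Each of these intervals includes 1. For IL-4/C1q EV over IL-1a/TNFa/C1q EV some alternatives gave an interval above 1. The ratio was 1.30 (1.03 to 1.64) after thinning to 1000 UMIs and 1.32 (1.05 to 1.66) with at least 8 rule UMIs. It was 1.28 (1.05 to 1.56) with a Dlx UMI required and 1.26 (1.03 to 1.54) without cells carrying markers of another class. Its interval included 1 with doublets removed, a common UMI floor, Ptprc-free cells or at least 2500 UMIs. UT EV over MAPS gave 0.265 (0.227 to 0.309). The size of that last ratio moved with the depth of the cells: among cells with at least 2500 UMIs the shares were 1.33% in IL-4/C1q EV, 0.988% in IL-1a/TNFa/C1q EV, 1.22% in UT EV and 3.22% in MAPS, and UT EV over MAPS was 0.378 (0.295 to 0.479).

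**Figure D1:**
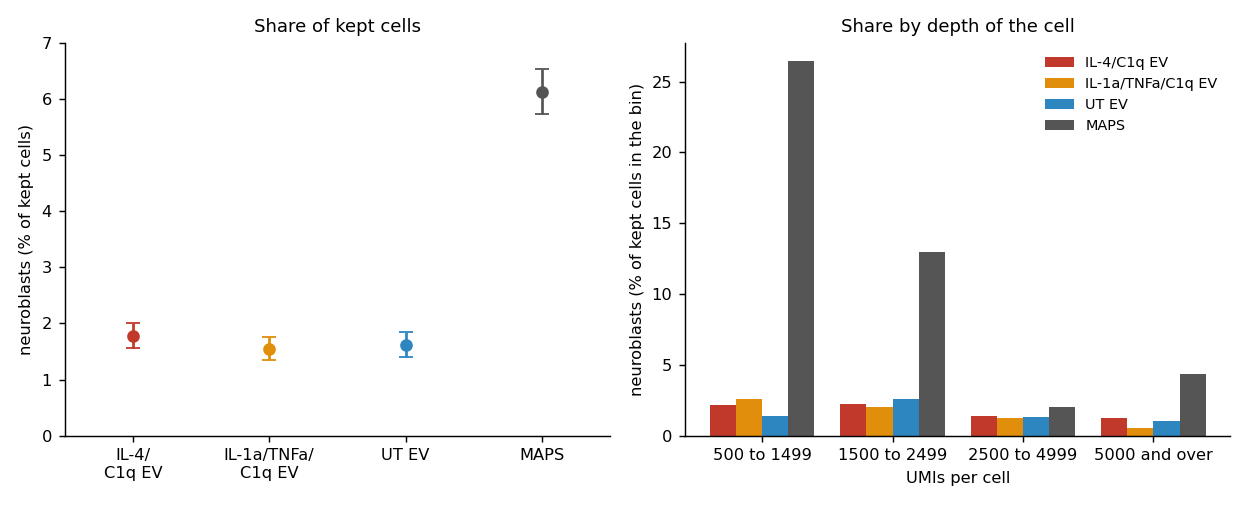
Left, neuroblasts as a percentage of kept cells in each library, with exact 95% counting intervals; right, the same percentage within 4 ranges of UMIs per cell, 1 bar per library. The MAPS library is highest in every range, with 26.4% of its kept cells under 1500 UMIs called neuroblasts and 4.35% of those with 5000 UMIs and over.

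Shallow cells carried much of the MAPS count. Of the 846 MAPS neuroblasts 474 (56.0%) had under 2500 UMIs, while 14.0% of the other kept cells of MAPS did. In the EV libraries the share of neuroblasts under 2500 UMIs was 63.1% in IL-4/C1q EV, 66.2% in the IL-1a/TNFa/C1q EV library and 58.9% in UT EV, against 50.4%, 47.0% and 45.1% of the other kept cells of those libraries. MAPS neuroblasts thus fell into a shallow set and a deep set, which the depth histogram shows as separate humps. The shallow MAPS set had a median of 1158.5 UMIs, 2.67% ribosomal protein UMIs, 3.997% mitochondrial UMIs and 72132 CPM of the nuclear RNA Malat1. The deep set had a median of 5997.5 UMIs, 8.48% ribosomal protein UMIs, 1.60% mitochondrial UMIs and 24224 CPM of Malat1. Meis2, a homeobox gene of this lineage that the rule did not use, had 3795 CPM in the shallow set and 1621 CPM in the deep set.

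**Figure D2:**
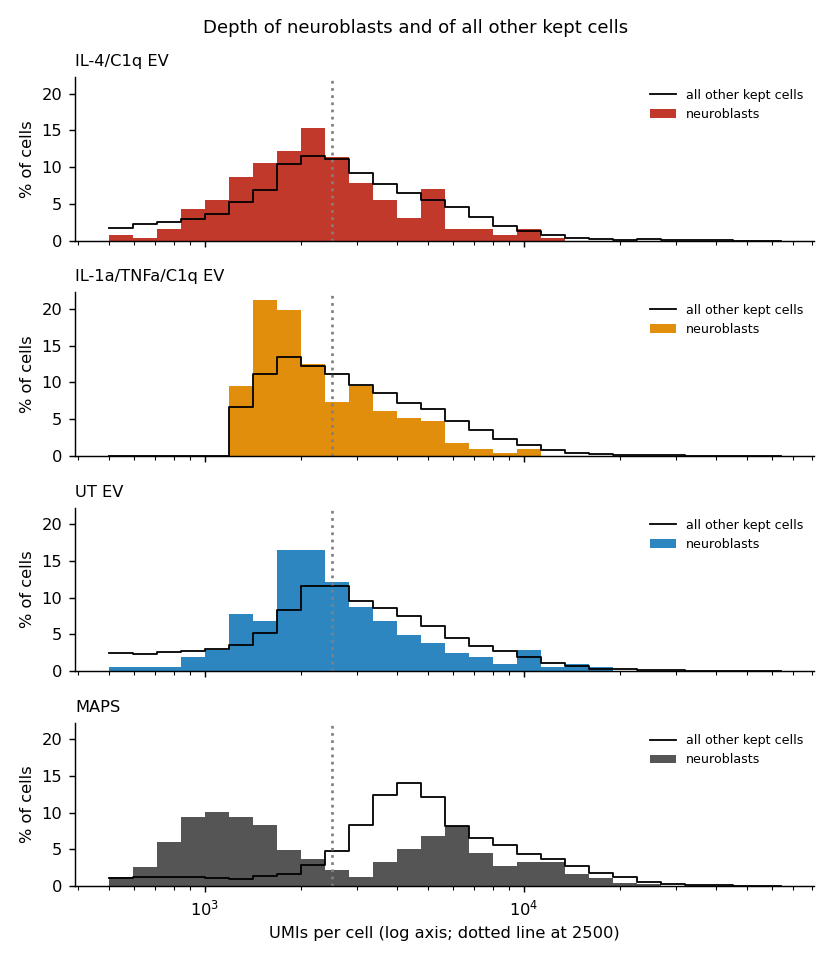
Percentage of cells by UMIs per cell on a log axis for neuroblasts (bars) and all other kept cells (black line), 1 panel per library, with a dotted line at 2500 UMIs. MAPS neuroblasts form 2 humps on either side of the line, with 56.0% below it, and those of the EV libraries form 1.

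The exclusions in the rule acted unevenly. Of the cells that passed the 6-gene threshold they removed 38 of 293 (12.97%) in IL-4/C1q EV, 45 of 276 (16.3%) in IL-1a/TNFa/C1q EV, 45 of 252 (17.9%) in UT EV and 384 of 1230 (31.2%) in MAPS. The removed MAPS cells had a median of 8262 UMIs, and 252 of them held Ptprc and 230 exceeded the limit on microglial genes. The median neuroblast held 10 UMIs of the 6 genes in IL-4/C1q EV, 9 in IL-1a/TNFa/C1q EV, 10 in UT EV and 16 in MAPS. At the threshold itself, cells with exactly 4 such UMIs numbered 21, 21, 8 and 44 in IL-4/C1q EV, IL-1a/TNFa/C1q EV, UT EV and MAPS, and had 2632, 1490, 4164 and 2411 CPM of Meis2. Cells just outside, with 3 such UMIs, numbered 23, 9, 15 and 31 and had 1246, 1730, 1388 and 3916 CPM of Meis2 in the same 4 libraries.

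The genes of the rule are given as levels without a comparison, since they chose the cells. Dcx, which encodes the microtubule-binding doublecortin, had 314 CPM in IL-4/C1q EV, 243 in IL-1a/TNFa/C1q EV, 305 in UT EV and 918 in MAPS. Sox11, a transcription factor of immature neurons, had 827 CPM in IL-4/C1q EV, 599.7 in IL-1a/TNFa/C1q EV, 682 in UT EV and 3881 in MAPS. Dlx1, a homeobox factor of GABAergic fate, had 308, 277, 283 and 813 CPM in those libraries. Its paralogue Dlx2 had 181 CPM in IL-4/C1q EV, 132 in IL-1a/TNFa/C1q EV, 181 in UT EV and 515 in MAPS. The long noncoding RNA Dlx6os1, transcribed opposite Dlx6, had 692 CPM in IL-4/C1q EV, 595 in IL-1a/TNFa/C1q EV, 682 in UT EV and 988 in MAPS. Because the counting of strands is not stated in the sources used here, reads of Dlx6 and Dlx6os1 cannot be told apart with certainty. Igfbpl1 encodes a secreted protein related to the insulin-like growth factor binding proteins. It had 1914 CPM in IL-4/C1q EV, 1979 in IL-1a/TNFa/C1q EV, 1743 in UT EV and 1174 in MAPS. It was seen in 95.3%, 96.5% and 97.6% of the neuroblasts of IL-4/C1q EV, IL-1a/TNFa/C1q EV and UT EV and in 81.7% of those of MAPS.

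Sox11 and Meis2 were detected in few microglia of the EV libraries and in more of those of MAPS. Sox11 was detected in 0.808% of microglia in IL-4/C1q EV, 0.761% in the IL-1a/TNFa/C1q EV library, 1.07% in UT EV and 10.3% in MAPS. In neuroblasts it was detected in 81.6%, 71.4%, 76.8% and 96.0% in the same order. Sox11 helped to choose the neuroblasts, so those values are levels and not a comparison. Meis2 was detected in 89.8% of neuroblasts and 1.24% of microglia in IL-4/C1q EV, in 86.6% and 1.61% in the IL-1a/TNFa/C1q EV library, 91.3% and 1.45% in UT EV, and 93.1% and 8.21% in MAPS. Neuroblasts had a median of 2121, 1963, 2245 and 1800.5 UMIs and microglia of 2715, 2650, 2959.5 and 4790 UMIs in IL-4/C1q EV, IL-1a/TNFa/C1q EV, UT EV and MAPS. Transcripts of other cells in neuroblasts did not all follow that order. The haemoglobin gene Hbb-bs was detected in 37.6%, 43.7%, 52.2% and 1.06% of the neuroblasts of the same libraries. Ttr, a choroid plexus gene, was detected in 63.9%, 48.9%, 58.9% and 64.4% of them.

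Genes of the ventral forebrain GABAergic lineage that the rule did not use were detected in the neuroblasts of all 4 libraries. Meis2 had 1658 CPM in IL-4/C1q EV neuroblasts, 1372 in IL-1a/TNFa/C1q EV, 1628 in UT EV and 2009 in MAPS, against 17.8, 16.2, 25.1 and 80.1 CPM in the other kept cells of the same libraries. Dlx5, a further homeobox factor of the family, had 200.1 CPM in IL-4/C1q EV, 186 in IL-1a/TNFa/C1q EV, 229 in UT EV and 292 in MAPS. Sp9, a zinc finger factor of striatal and olfactory neurons, had 193 CPM in IL-4/C1q EV, 132 in IL-1a/TNFa/C1q EV, 219 in UT EV and 568 in MAPS. For these 3 genes the 3 EV libraries lay closer to each other than to MAPS. Vax1, by contrast, had 29.2, 34.2 and 26.5 CPM in IL-4/C1q EV, IL-1a/TNFa/C1q EV and UT EV and 10.1 CPM in MAPS.

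Enzymes and transporters of GABA followed. Gad2, which makes GABA from glutamate, had 298 CPM in IL-4/C1q EV, 335 in IL-1a/TNFa/C1q EV, 319 in UT EV and 424 in MAPS, and was seen in 46.3%, 50.2%, 51.7% and 61.0% of the neuroblasts of these libraries. Gad1, the second such enzyme, had 58.4 CPM in IL-4/C1q EV, 47.8 in IL-1a/TNFa/C1q EV, 51.4 in UT EV and 278 in MAPS. Slc32a1, which loads GABA into synaptic vesicles, had 78.9, 56.4 and 59.1 CPM in IL-4/C1q EV, IL-1a/TNFa/C1q EV and UT EV and 125 CPM in MAPS. Gad1 was thus the less abundant of the 2 synthetic enzymes by UMI count, although 3′ counts of different genes are only roughly comparable.

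The cytoskeleton of a moving neuroblast was well represented. Stmn2, a neuronal stathmin that regulates microtubules, had 2482 CPM in IL-4/C1q EV, 2853 in IL-1a/TNFa/C1q EV, 2444 in UT EV and 1045 in MAPS. Stmn1, its broadly expressed relative, had 9763, 11326 and 10291 CPM in IL-4/C1q EV, IL-1a/TNFa/C1q EV and UT EV and 4592 CPM in MAPS. Tubb3, the neuronal beta-tubulin, had 1023 CPM in IL-4/C1q EV, 878 in IL-1a/TNFa/C1q EV, 967 in UT EV and 1451 in MAPS. Map1b, a microtubule-associated protein of growing axons, had 552, 408 and 489 CPM in the 3 EV libraries and 1506 CPM in MAPS. The stathmins were therefore lower in MAPS than in each EV library, and Tubb3 and Map1b higher. Among surface molecules, the polysialylated adhesion molecule Ncam1 had 527 CPM in IL-4/C1q EV, 437 in IL-1a/TNFa/C1q EV, 468 in UT EV and 1349 in MAPS. Robo2, a receptor for the repellent Slit proteins, had 111 CPM in IL-4/C1q EV, 63.2 in IL-1a/TNFa/C1q EV, 104 in UT EV and 383 in MAPS. The chemokine receptor Cxcr4 was near the limit of detection, with 1, 4 and 11 UMIs in IL-4/C1q EV, IL-1a/TNFa/C1q EV and UT EV and 29 UMIs in MAPS.

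Several genes of mature neurons and of other lineages were at low levels. Rbfox3, which encodes the mature neuronal protein NeuN, had 14.6 CPM in IL-4/C1q EV, 13.7 in IL-1a/TNFa/C1q EV, 15.6 in UT EV and 16.5 in MAPS, and was seen in 2.75%, 3.46%, 4.35% and 3.55% of neuroblasts. Th, the dopamine-synthesis enzyme of one class of olfactory interneurons, had 0, 1, 0 and 1 UMI in IL-4/C1q EV, IL-1a/TNFa/C1q EV, UT EV and MAPS. The exact interval of the count of 0 reaches 5.39 CPM in IL-4/C1q EV and 5.74 CPM in UT EV. Calb2, the calretinin of another such class, had 14.6 CPM in IL-4/C1q EV, 59.8 in IL-1a/TNFa/C1q EV, 38.9 in UT EV and 15.3 in MAPS, from 3.14%, 3.896%, 3.38% and 2.25% of the cells. Of the glutamatergic lineage, Neurod1 had 14.6, 34.2, 31.1 and 11.6 CPM in IL-4/C1q EV, IL-1a/TNFa/C1q EV, UT EV and MAPS, and the forebrain factor Tbr1 had 2, 4, 0 and 23 UMIs. Prox1, which marks dentate granule neurons and some interneurons, was higher than these, with 58.4, 47.8 and 76.3 CPM in the EV libraries in that order and 199.7 CPM in MAPS. Pdgfra, which defines oligodendrocyte precursors, had 5.84, 1.71, 1.56 and 7.02 CPM in the neuroblasts of IL-4/C1q EV, IL-1a/TNFa/C1q EV, UT EV and MAPS, against 596, 478, 622 and 564 CPM in the oligodendrocyte precursors of the same libraries. Other genes of mature or maturing neurons were seen in more cells. In IL-4/C1q EV, IL-1a/TNFa/C1q EV, UT EV and MAPS, Snap25 was seen in 11.0%, 4.33%, 5.31% and 28.3% of neuroblasts. Map2 was seen in 49.4%, 35.9%, 55.1% and 79.0%, and Rtn1 in 97.3%, 97.4%, 99.0% and 85.2%. Rbfox3, Th, Neurod1 and Tbr1 were thus low, while Map2, Rtn1, Prox1 and, in MAPS, Snap25 were less so. Rbfox3 was also above its 0.371, 0.622, 1.06 and 1.36 CPM in the other kept cells of the same libraries. These genes are therefore not read for or against the name neuroblast.

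**Figure D3:**
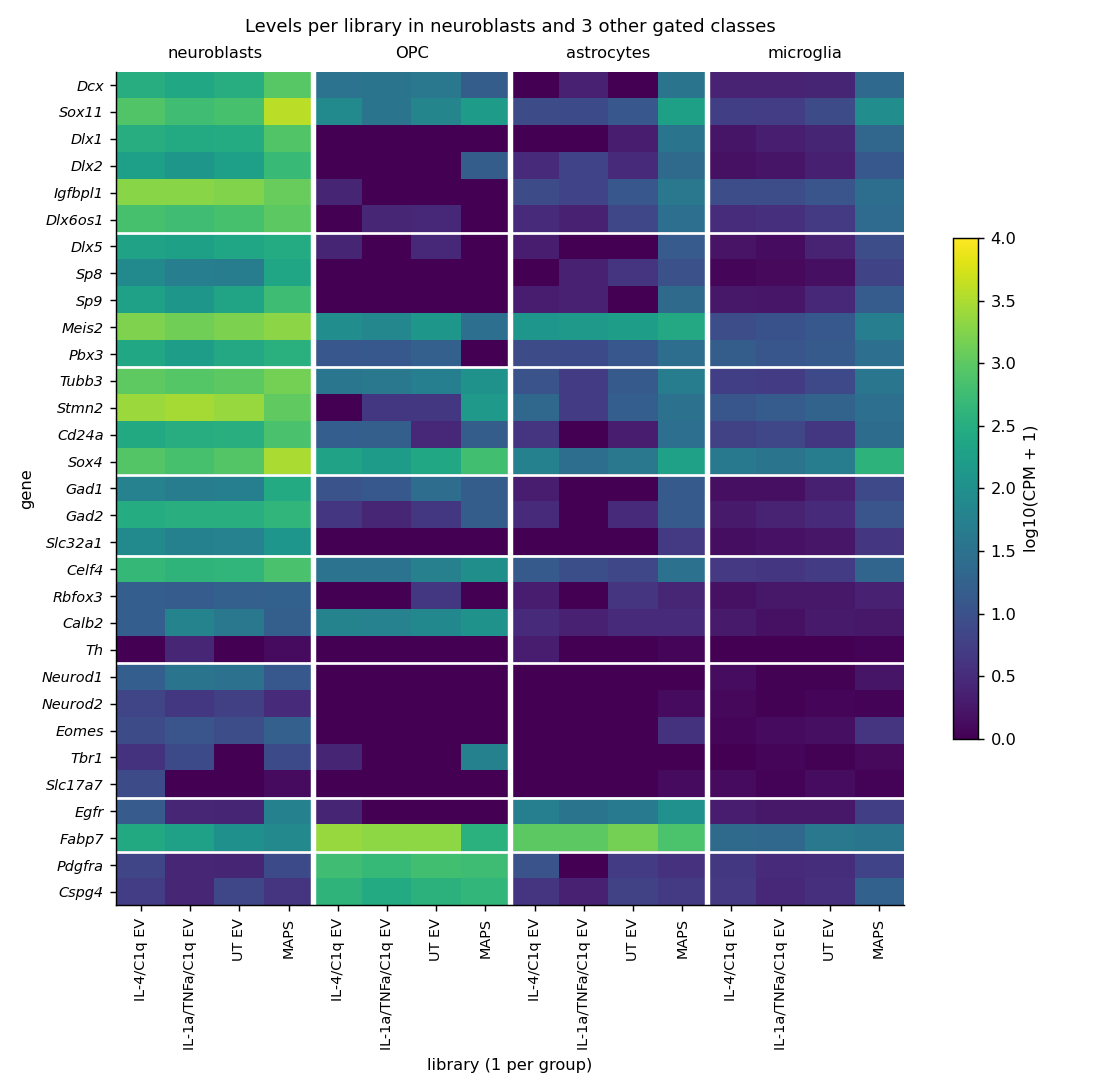
Colour shows log10(CPM + 1) of named genes (rows, grouped by list) in neuroblasts and in 3 other gated classes, oligodendrocyte precursors (OPC), astrocytes and microglia, with 1 column per library. Rule genes are bright in neuroblasts of all 4 libraries by the choice of cells. GABAergic factors and cytoskeletal genes are also bright in neuroblasts of all 4 libraries, while Th, Neurod2, Tbr1 and Slc17a7 stay low there.

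The 15 genes with the highest lowest ratio of neuroblasts to all other kept cells, among genes outside the rule with at least 30 UMIs in the neuroblasts of each library, described the same identity. They were led by Adarb2, an editing-enzyme relative found in interneurons, with 172 CPM in neuroblasts and 3.25 CPM in other cells of IL-4/C1q EV, 144 and 2.82 CPM in the IL-1a/TNFa/C1q EV library, 184 and 3.43 CPM in UT EV and 211 and 5.87 CPM in MAPS. After Slc32a1 came Islr2, an axon membrane protein with 220.6, 137, 162 and 476 CPM in the neuroblasts of IL-4/C1q EV, IL-1a/TNFa/C1q EV, UT EV and MAPS, and Scrt1, a neuronal zinc finger repressor with 115, 88.8, 112 and 134 CPM. Gad2, Sp9 and Stmn2 were among the 15, as were the neuronal RNA-binding proteins Elavl2 and Celf3, the splicing factor Srrm4, the transcription factor Myt1l, the synaptic genes Nrxn3 and Lrrc7 and the noncoding Gm14204. The lowest ratio ran from 28.96 for Celf3 to 36.0 for Adarb2, and it was in MAPS for all 15. These ratios follow from the choice of cells and are no test.

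Receptors for the cytokines named in the labels were barely detected in neuroblasts. Il4ra, the IL-4 receptor chain, had 3 UMIs in IL-4/C1q EV, 2 in IL-1a/TNFa/C1q EV, 0 in UT EV and 5 in MAPS. Il1r1, the receptor of IL-1, had 1, 1, 0 and 0 UMIs, and Tnfrsf1a, the main TNF receptor, had 6, 2, 10 and 39 UMIs in the same libraries. Receptors of trophic factors were easier to see: Igf1r, the IGF-1 receptor, had 129 CPM in IL-4/C1q EV, 104 in IL-1a/TNFa/C1q EV, 114 in UT EV and 322 in MAPS. Of the type I interferon receptor chains, Ifnar1 had 30.7, 27.3, 32.7 and 62.9 CPM and Ifnar2 had 45.3, 71.8, 85.6 and 30.8 CPM in IL-4/C1q EV, IL-1a/TNFa/C1q EV, UT EV and MAPS.

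Some neuroblasts also carried markers of another class. Cells with at least 3 UMIs from at least 2 markers of another class were 42 (16.5%) in IL-4/C1q EV, 54 (23.4%) in IL-1a/TNFa/C1q EV, 52 (25.1%) in UT EV and 276 (32.6%) in MAPS. Erythroid markers were the most frequent in IL-1a/TNFa/C1q EV with 28 cells and in UT EV with 25, while IL-4/C1q EV had 6 and MAPS had 3. In MAPS the frequent ones were oligodendrocyte (104 cells), choroid plexus (96), astrocyte (93) and microglial markers (83). Endothelial markers reached that limit in 9, 10, 10 and 0 neuroblasts of IL-4/C1q EV, IL-1a/TNFa/C1q EV, UT EV and MAPS. The 7 endothelial markers summed to 592 CPM in the neuroblasts of IL-4/C1q EV, 856 in IL-1a/TNFa/C1q EV, 408 in UT EV and 12.2 in MAPS. The comparisons between libraries were repeated without these cells.

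Cycling cells were a similar share of the neuroblasts in all 4 libraries, with overlapping intervals. Cells with at least 3 UMIs from at least 2 of 16 cell cycle genes were 49 of 255 in IL-4/C1q EV (19.2%, 14.6% to 24.6%), 47 of 231 in the library IL-1a/TNFa/C1q EV (20.3%, 15.3% to 26.1%), 42 of 207 in UT EV (20.3%, 15.03% to 26.4%) and 187 of 846 in MAPS (22.1%, 19.3% to 25.1%). The share in other kept cells was 1.12%, 1.49%, 1.36% and 5.67% in IL-4/C1q EV, IL-1a/TNFa/C1q EV, UT EV and MAPS. Cycling neuroblasts were deeper, with a median of 4734 UMIs against 1875 in the other neuroblasts of IL-4/C1q EV, 3708 against 1789 in IL-1a/TNFa/C1q EV, 4982 against 2042 in UT EV and 8548 against 1464 in MAPS. After thinning each cell to 1000 UMIs the cycling shares were 15.2% in IL-4/C1q EV, 14.3% in IL-1a/TNFa/C1q EV, 14.0% in UT EV and 15.98% in MAPS. Thinning left out the shallower neuroblasts and kept 237, 231, 200 and 682 of them in these libraries.

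Cycling neuroblasts had more of some progenitor genes and less of the genes of migration and differentiation than the other neuroblasts of the same library. Among 7307 genes with at least 100 UMIs, 1381 (18.9%) were higher in cycling cells in each of the 4 libraries and 1934 (26.5%) were lower in each. Of 14 measured stem cell and progenitor genes, 6 were higher in all 4 and 1 was lower in all 4. Of 12 measured genes of maturing neurons, 11 were lower in all 4, as were 6 of 7 genes of GABA synthesis and signalling, 18 of 23 of the cytoskeleton, 9 of 13 guidance receptors and 11 of 15 GABAergic lineage factors. All 20 listed cell cycle genes were higher, 16 of which define the cycling cells.

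Gsx2, a homeobox factor of ventral progenitors, was one of the 2 lineage factors that were higher, with 19.9 CPM in cycling and 2.31 CPM in other neuroblasts of IL-4/C1q EV, 10.7 and 5.02 in the library IL-1a/TNFa/C1q EV, 26.9 and 5.24 in UT EV, and 56.4 and 4.77 in MAPS. Its cycling-to-other ratio was 8.61 in IL-4/C1q EV with a 95% interval of 0.964 to 407. The ratio was 2.13 in IL-1a/TNFa/C1q EV, with bounds of 0.154 and 29.4. In UT EV it was 5.13, with bounds of 0.977 and 50.6, and in MAPS 11.8, with bounds of 5.75 and 28.2. The intervals of the 3 EV libraries include 1, and Gsx2 had 1 or 2 UMIs in the other neuroblasts of each. Fabp7, a fatty acid binding protein of radial glia and astrocytes, had cycling-to-other ratios of 3.62 in IL-4/C1q EV, 1.41 in IL-1a/TNFa/C1q EV, 7.06 in UT EV and 6.43 in MAPS. After thinning to 1000 UMIs, with cycling cells called before, the Fabp7 ratio in IL-1a/TNFa/C1q EV was 0.593. The interval of the unthinned ratio in that library was 0.945 to 2.08, and 1 cell held 46.0% of its Fabp7 UMIs, so no direction is read there.

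Meis2 had 795 CPM in cycling and 2159 CPM in other neuroblasts of IL-4/C1q EV, 626 and 1723 in the library IL-1a/TNFa/C1q EV, 572 and 2349 in UT EV, and 918 and 3047 in MAPS. Pbx3, a cofactor that pairs with Meis proteins, had ratios of 0.256, 0.0896, 0.134 and 0.126 in IL-4/C1q EV, IL-1a/TNFa/C1q EV, UT EV and MAPS. Gad2 had ratios of 0.357, 0.415, 0.323 and 0.457, and Robo2 ratios of 0.203, 0.412, 0.0930 and 0.198, in the same order. Stmn1 was higher in cycling cells, with ratios of 1.26, 1.34, 1.20 and 1.51, while Stmn2 was lower, with ratios of 0.275, 0.511, 0.299 and 0.385. The 2 stathmins therefore ran in opposite directions within all 4 libraries.

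Since cycling cells were deeper, the same comparison was made among neuroblasts with at least 2500 UMIs only. Among 6210 genes measured there, 17.6% were lower and 19.3% higher in all 4 libraries. Of the lists, 7 of 15 GABAergic factors, 12 of 23 cytoskeletal genes, 7 of 12 guidance receptors, 3 of 6 GABA genes and 4 of 8 maturing neuron genes were lower in all 4 libraries, and the list medians stayed below 0 in each library. Of 14 progenitor genes 5 were higher in all 4, but the median log2 ratio of that list was below 0 in at least 1 library, at -0.04, while its lowest value over all neuroblasts was 0.22. Meis2 ratios were then 0.696 in IL-4/C1q EV, 0.602 in IL-1a/TNFa/C1q EV, 0.340 in UT EV and 0.343 in MAPS, and Fabp7 ratios were 1.99, 2.92, 4.91 and 5.83. With that depth limit, cycling cells were 48.9% of neuroblasts in IL-4/C1q EV, 51.3% in IL-1a/TNFa/C1q EV, 47.1% in UT EV and 41.4% in MAPS.

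**Figure D4:**
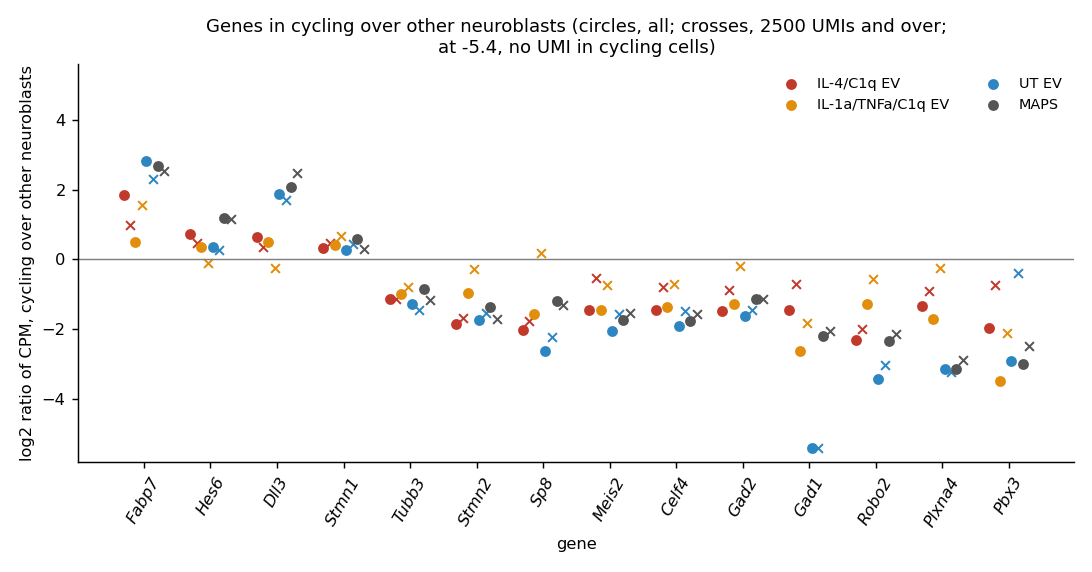
Log2 ratio of CPM in cycling over other neuroblasts for 14 genes outside the rule, with 1 colour per library, circles for all neuroblasts and crosses for those with at least 2500 UMIs. Fabp7 is above 0 for every circle and cross, although the counting interval of its IL-1a/TNFa/C1q EV circle includes equality, and Meis2, Celf4, Gad2, Robo2 and Pbx3 are below 0 for every one.

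Set side by side, the neuroblasts of IL-4/C1q EV and UT EV differed little in lineage genes and more in interferon-response genes. Of 3564 genes with at least 50 UMIs over both libraries 274 (7.69%) were past 1.5-fold, 162 (4.55%) higher and 112 (3.14%) lower in IL-4/C1q EV, with a median log2 ratio of -0.01. For the 11 measured GABAergic factors the median log2 ratio was 0.03, with 1 past 1.5-fold, Sp8, at 81.8 CPM in IL-4/C1q EV and 46.7 CPM in UT EV. None of 21 measured cytoskeletal genes was past 1.5-fold, and their median was 0.06. Neither set stood away from the median of all genes by more than 0.1.

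All 5 measured interferon-response genes were past 1.5-fold and higher in IL-4/C1q EV than in UT EV, at a median log2 ratio of 1.34. Interferon-stimulated genes are switched on by type I or type II interferon through STAT and IRF transcription factors. Several of the genes named here have repeats of the letters GAAA in their promoters, and 3 such stretches are printed to show where the repeats lie. They come from RefSeq promoters on build GRCm38.p6, read in the direction of the gene and starting some way upstream of the start site, with the letters GAAA followed after any 2 bases by GAAA, on either strand, in capitals, where overlapping matches join into 1 run.
Isg15, chr4:156200819-156200974, minus strand, 3 matches: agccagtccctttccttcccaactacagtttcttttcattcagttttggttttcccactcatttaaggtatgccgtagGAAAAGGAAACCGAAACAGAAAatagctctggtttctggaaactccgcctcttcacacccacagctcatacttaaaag
Bst2, chr8:71537527-71537686, minus strand, 2 matches: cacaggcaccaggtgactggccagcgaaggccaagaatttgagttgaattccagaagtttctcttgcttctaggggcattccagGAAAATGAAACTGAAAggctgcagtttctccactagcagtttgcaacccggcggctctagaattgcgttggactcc
Ifit3, chr19:34583317-34583476, plus strand, 2 matches: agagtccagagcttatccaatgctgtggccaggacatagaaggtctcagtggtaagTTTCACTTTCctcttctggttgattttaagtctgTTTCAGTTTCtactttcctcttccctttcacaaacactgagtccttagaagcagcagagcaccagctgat

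This motif was present in 978 of 32851 promoters (2.98%), each searched over an equal length upstream of the start site that exceeds the stretches printed. Counted per gene, with a match in any of its promoters, it was present in 9 of the 18 listed interferon genes that had a promoter there. The count over promoters and the count over genes thus have unlike units. A match describes letters in a window and is not a measured binding site.

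Isg15, a ubiquitin-like protein, had 200.1 CPM in IL-4/C1q EV, 46.1 in IL-1a/TNFa/C1q EV, 76.3 in UT EV and 2.14 in MAPS, with a ratio of 2.62 for IL-4/C1q EV over UT EV (1.88 to 3.71). Bst2, the antiviral membrane tether tetherin, had 172, 56.4, 103 and 10.7 CPM in IL-4/C1q EV, IL-1a/TNFa/C1q EV, UT EV and MAPS, with a ratio of 1.68 (1.23 to 2.30). Ifitm3, a membrane protein that blocks virus entry, had 558 CPM in IL-4/C1q EV, 249 in IL-1a/TNFa/C1q EV, 176 in UT EV and 15.9 in MAPS, with a ratio of 3.17 (2.57 to 3.95). IL-4/C1q EV was the highest library for each. Ifi27, a mitochondrial interferon-induced protein, had 413 CPM in IL-4/C1q EV, 183 in IL-1a/TNFa/C1q EV, 223 in UT EV and 89.2 in MAPS, with a ratio of 1.86 over UT EV (1.51 to 2.29). Ifi27l2a, a relative of Ifi27, had 102, 52.97, 40.5 and 11.6 CPM in these libraries and a ratio of 2.53 (1.59 to 4.13). Ifit3, an RNA-binding antiviral protein below the count threshold, had 28 UMIs in IL-4/C1q EV, 5 in IL-1a/TNFa/C1q EV, 6 in UT EV and 31 in MAPS.

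The whole list of 25 genes summed to 1801 CPM in IL-4/C1q EV, 724 in IL-1a/TNFa/C1q EV, 786 in UT EV and 355 in MAPS. The summed ratio was 2.29 for IL-4/C1q EV over UT EV (2.06 to 2.55), 2.49 for IL-4/C1q EV over IL-1a/TNFa/C1q EV (2.22 to 2.78) and 0.922 for IL-1a/TNFa/C1q EV over UT EV (0.808 to 1.05). Neuroblasts with at least 5 UMIs of the list were 50 (19.6%) in IL-4/C1q EV, 19 (8.23%) in IL-1a/TNFa/C1q EV, 21 (10.1%) in UT EV and 38 (4.49%) in MAPS. In MAPS a single cell held 23.8% of the list's UMIs, and Rsad2, an antiviral enzyme, had 145 UMIs there from 0.118% of the neuroblasts.

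Markers of other classes moved with this result. Neuroblasts that carried such markers had 4851 CPM of the interferon list in IL-4/C1q EV, 1516 in IL-1a/TNFa/C1q EV, 1430 in UT EV and 439 in MAPS. Neuroblasts without them had 801 CPM in IL-4/C1q EV, 412 in IL-1a/TNFa/C1q EV, 408 in UT EV and 245 in MAPS. In those cleaner cells IL-4/C1q EV over UT EV was 1.97 (1.64 to 2.37), so the level was lower and the ratio smaller, and IL-4/C1q EV was still the highest. Without cycling cells the ratio was 1.99 and the median log2 ratio 0.68. Other classes of the same libraries held more of these RNAs: endothelial cells had 20577 CPM in IL-4/C1q EV, 6691 in IL-1a/TNFa/C1q EV, 11001 in UT EV and 3733 in MAPS, and microglia had 6529, 2132, 2498.7 and 1955 CPM. The ratio of IL-4/C1q EV over UT EV was 1.99 in oligodendrocyte precursors, 3.60 in astrocytes, 2.61 in microglia and 1.87 in endothelial cells, so the same direction was seen in each of these classes. The part of background RNA in the neuroblast values was not tested.

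**Figure D5:**
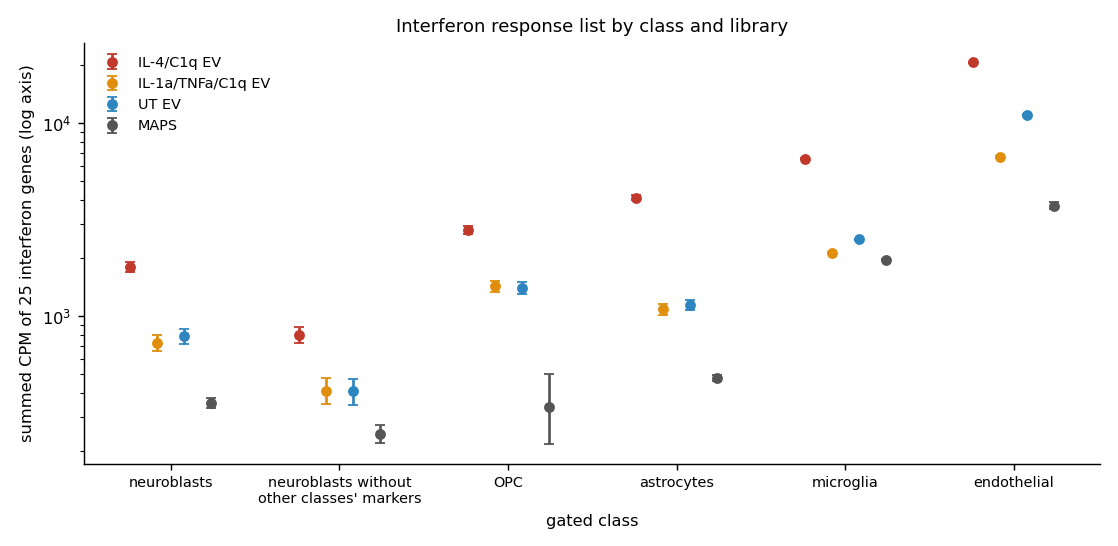
Summed CPM of the 25 interferon-response genes on a log axis by class, with 1 colour per library and exact 95% counting intervals. IL-4/C1q EV is the highest library in all 6 groups of cells shown, at 1801 CPM in neuroblasts and 801 CPM in neuroblasts without markers of another class.

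Few other listed genes were past 1.5-fold between IL-4/C1q EV and UT EV. Fabp7 had 267 CPM in IL-4/C1q EV and 99.6 CPM in UT EV, but 32.2% of its UMIs in IL-4/C1q EV came from 1 cell. Gadd45b, a stress-induced regulator of growth arrest, had 76.0 CPM in IL-4/C1q EV and 23.3 CPM in UT EV, a ratio of 3.25 (1.80 to 6.22). These were 52 UMIs from 18 cells in IL-4/C1q EV, 28.8% of them in 1 cell, and 15 UMIs from 7 cells in UT EV, 60% of them in 1 cell, and the other kept cells had 296 and 359 CPM. Ier3, an immediate early gene, had 112 and 46.7 CPM, a ratio of 2.41 (1.56 to 3.81). Its counts were 77 UMIs from 24 cells in IL-4/C1q EV, 20.8% of them in 1 cell. In UT EV they were 30 UMIs from 16 cells, 23.3% of them in 1 cell. The other kept cells of these libraries had 469 and 557 CPM of Ier3. Hspa5, the chaperone of the endoplasmic reticulum, had 298 CPM in IL-4/C1q EV and 170 CPM in UT EV, a ratio of 1.76 (1.39 to 2.24). The receptor chain Ifnar2 went the other way at 45.3 CPM in IL-4/C1q EV and 85.6 CPM in UT EV, a ratio of 0.529 (0.329 to 0.836).

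IL-1a/TNFa/C1q EV neuroblasts had lower levels than UT EV neuroblasts for part of the cell cycle list and higher levels for genes of MHC class I presentation. Of 3226 measured genes 434 (13.5%) were past 1.5-fold, 122 (3.78%) higher and 312 (9.67%) lower in IL-1a/TNFa/C1q EV, with a median log2 ratio of -0.06. The median was -0.48 for 13 cell cycle genes, of which 5 were past 1.5-fold, all lower. Mki67, a marker of dividing cells, had 47.8 CPM in IL-1a/TNFa/C1q EV and 77.8 CPM in UT EV, a ratio of 0.615 (0.373 to 0.996). Top2a, the topoisomerase of dividing cells, had 144 CPM in IL-1a/TNFa/C1q EV and 233 CPM in UT EV, a ratio of 0.615 (0.465 to 0.808). The list median was -0.03 without cells that carry markers of another class and -0.08 when each cell had equal weight, and the share of cycling cells was 20.3% in both libraries.

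Of 11 GABAergic factors 0 were past 1.5-fold higher and 2 lower in IL-1a/TNFa/C1q EV, with a median log2 ratio of -0.32. Those were Sp9, at 132 CPM in IL-1a/TNFa/C1q EV and 219 CPM in UT EV, and Pbx3, at 169 and 260 CPM. Of 6 guidance receptors 2 were lower, Robo2 at a ratio of 0.606 (0.394 to 0.919) and the integrin chain Itgb1 at 0.527 (0.310 to 0.874), and the median was -0.34. The background for a lower call in this comparison was the 9.67% of all genes given above, and counts of 2 in lists of this size are not read as a result. Because Dlx1, Dlx2 and Dlx6os1 belong to the rule that chose the cells, their detection is given as a level without a comparison. Neuroblasts with a UMI of any of them were 81.0% of the IL-1a/TNFa/C1q EV set, with an interval of 75.3% to 85.8%. In UT EV they were 91.8%, with an interval of 87.2% to 95.1%. With such a UMI required, 1 of the 11 factors was past 1.5-fold lower and the median was -0.29.

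For MHC class I presentation, in which B2m and H2 chains display peptides cut by the immunoproteasome, 3 of 5 measured genes were past 1.5-fold higher in IL-1a/TNFa/C1q EV than in UT EV. B2m, the light chain, had 90.6 CPM in IL-4/C1q EV, 167 in IL-1a/TNFa/C1q EV, 96.5 in UT EV and 146 in MAPS. Its log2 ratio of IL-1a/TNFa/C1q EV over UT EV was 0.80, but -0.0504 with cells thinned to 1000 UMIs. Psmb8, an immunoproteasome subunit, had 84.7, 113, 52.9 and 6.41 CPM in IL-4/C1q EV, IL-1a/TNFa/C1q EV, UT EV and MAPS. Psmb10, another subunit, had 49.7, 75.2, 38.9 and 18.9 CPM in these libraries. The list of 12 genes summed to 567 CPM in IL-4/C1q EV, 774 in IL-1a/TNFa/C1q EV, 514 in UT EV and 427 in MAPS. IL-1a/TNFa/C1q EV over UT EV was 1.51 (1.30 to 1.74), and 1.82 (1.42 to 2.35) in neuroblasts without markers of another class. The same ratio was 1.53 in oligodendrocyte precursors, 1.75 in astrocytes and 1.02 in microglia. Isg15 and Bst2 were lower in IL-1a/TNFa/C1q EV than in UT EV, at ratios of 0.605 (0.364 to 0.987) and 0.549 (0.350 to 0.846).

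Cdkn1a, a cell cycle inhibitor induced by p53, had 49.7 CPM in IL-4/C1q EV, 126 in IL-1a/TNFa/C1q EV, 71.6 in UT EV and 71.4 in MAPS. Its ratio was 1.77 for IL-1a/TNFa/C1q EV over UT EV (1.21 to 2.61) and 0.393 for IL-4/C1q EV over IL-1a/TNFa/C1q EV (0.254 to 0.597). Id1, an inhibitor of differentiation factors, had 128 CPM in IL-1a/TNFa/C1q EV and 57.6 CPM in UT EV neuroblasts, against 168 and 268 CPM in the other kept cells of these libraries.

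Between IL-4/C1q EV and IL-1a/TNFa/C1q EV, neuroblasts of IL-4/C1q EV had more of the interferon genes and less of MHC class I. The median of the 11 measured GABAergic factors lay above that of all genes. Of 3339 genes 521 (15.6%) were past 1.5-fold, 384 (11.5%) higher and 137 (4.1%) lower in IL-4/C1q EV, with a median log2 ratio of 0.06. Of 11 GABAergic factors 4 were higher, Sp8, Tshz1 and Bcl11b among them, and the median was 0.55. With a UMI of Dlx1, Dlx2 or Dlx6os1 required, 2 were higher and the median was 0.46. Bcl11b, a zinc finger factor of striatal neurons, had 126 CPM in IL-4/C1q EV and 70.1 CPM in IL-1a/TNFa/C1q EV. Of 6 guidance receptors 3 were higher, with a median of 0.68: Epha4, a receptor of ephrins, had 80.3 CPM in IL-4/C1q EV and 34.2 CPM in IL-1a/TNFa/C1q EV, a ratio of 2.35 (1.39 to 4.14). All 5 interferon genes were higher, with a median of 1.18, and 3 of 6 MHC class I genes were lower, with a median of -0.51. The 3 comparisons among EV libraries share libraries, so none of them supports another.

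UT EV and MAPS differed across most genes. Of 8954 measured genes 6835 (76.3%) were past 1.5-fold, 1390 (15.5%) higher and 5445 (60.8%) lower in UT EV, with a median log2 ratio of -0.93. Of 14 gene lists 13 had a median below 0, against the median of -0.93 over all genes. The medians were -1.12 for GABAergic factors, -1.38 for cytoskeletal genes, -0.89 for cell cycle genes and -0.53 for interferon-response genes. MHC class I presentation was the exception with a median of 0.66, but in neuroblasts without markers of another class its summed ratio was 0.538 (0.432 to 0.665), against 1.20 (1.06 to 1.36) in all of them. With a background of 76.3%, no list is described as changed between these libraries.

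Genes that set 1 library apart from each of the others were sought among 6856 genes, as those whose ratio to the closest library had an interval entirely past 1.5-fold. IL-4/C1q EV had 5 higher (0.0729%) and 0 lower (0%), IL-1a/TNFa/C1q EV 8 higher (0.117%) and 11 lower (0.16%), UT EV 3 higher (0.0438%) and 0 lower (0%), and MAPS 1556 higher (22.7%) and 664 lower (9.68%). After markers of other classes, haemoglobin, ribosomal, mitochondrial and sex-linked genes and genes clearly more abundant in the other cells were left out, Ifi27 was the 1 gene higher in IL-4/C1q EV. Pcp4, a calmodulin-binding protein of striatal and other neurons, was the 1 gene higher in IL-1a/TNFa/C1q EV, at 290.5 CPM, against 86.2 in IL-4/C1q EV, 68.5 in UT EV and 12.2 in MAPS. A single cell held 34.1% of the Pcp4 UMIs of IL-1a/TNFa/C1q EV. No gene set apart in UT EV was left after these exclusions.

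The 4 named genes lower in IL-1a/TNFa/C1q EV were Csnk2a2, Jade1, Cdk6 and Brd1. Csnk2a2, a catalytic subunit of casein kinase 2, had 1 UMI in IL-1a/TNFa/C1q EV and 35, 36 and 201 UMIs in IL-4/C1q EV, UT EV and MAPS, with a ratio of 0.0334 to the nearest library (0.000823 to 0.199). Brd1, a chromatin reader, had 29.05 CPM in IL-1a/TNFa/C1q EV, 96.4 in IL-4/C1q EV, 168 in UT EV and 82.7 in MAPS. These genes were lower in the other cells of that library too: Csnk2a2 had 12.3 CPM in the other kept cells of IL-1a/TNFa/C1q EV and 31.1, 38.7 and 39.9 CPM in those of IL-4/C1q EV, UT EV and MAPS. Brd1 had 14.0 CPM there, and 60.8, 86.5 and 53.6 CPM in the other cells of the same 3 libraries.

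The genes that set MAPS apart likewise reached beyond neuroblasts. Eef2, the translation elongation factor, had 228 CPM in IL-4/C1q EV, 188 in IL-1a/TNFa/C1q EV, 189.9 in UT EV and 1079 in MAPS neuroblasts, and the other cells of MAPS had 802 CPM. Miat, a nuclear noncoding RNA of neurons, had 73.0, 56.4 and 56.0 CPM in IL-4/C1q EV, IL-1a/TNFa/C1q EV and UT EV and 382 CPM in MAPS. Dpysl2, which mediates semaphorin signals to the cytoskeleton, had 115, 68.3 and 74.7 CPM in the same EV libraries and 561 CPM in MAPS. The histone gene H4c8 had 349, 272 and 358 CPM in IL-4/C1q EV, IL-1a/TNFa/C1q EV and UT EV and 12.8 CPM in MAPS. Igfbp7, a secreted binding protein of insulin-like growth factors, had 165, 236 and 137 CPM in these EV libraries and 4.58 CPM in MAPS. Cxcl12, the ligand of Cxcr4, had 171, 253 and 103 CPM in the EV libraries and 4.27 CPM in MAPS. Both are known to be expressed by endothelial cells, whose 7 markers, each detected in all 4 libraries, summed to 408 to 856 CPM in EV neuroblasts and 12.2 CPM in MAPS neuroblasts. Their part in these values was not tested, and in each EV library a single cell held 27.7% to 50% of the UMIs of Cxcl12.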

How the data were processed

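Single-cell RNA was counted with 10x Chromium 3′ v3 chemistry in 4 libraries after enzymatic digestion and dead cell removal, per the labels' protocols. The deposited matrices hold raw UMI counts of 55357 genes per barcode. Build GRCm39, Seurat 4.1.0 and Cell Ranger 7.0.0 were used per the submitters' processing notes, whereas version 8.0.1 of Cell Ranger stands in the file headers. No cell annotation was used, and the neuroblasts, the gene lists and the rule for named genes were chosen with earlier results of these data known. UMIs were summed over the cells of a class in each library and divided by the total (CPM). Ratios have conditional binomial, shares Clopper-Pearson and sums exact Poisson 95% intervals, which cover counting error only. With 1 library per group no test was possible. Pairs of libraries were compared for genes with at least 50 UMIs over both. Genes were named if apart from each other library (up to 6 higher and 6 lower for IL-4/C1q EV, 4 and 4 for the others), among the 15 most enriched, or among up to 6 per list with the largest ratio in a pair, and rule and marker genes may be given as levels; the genes of the cycling comparison and other listed genes were chosen after their values were seen. That comparison and the limit of 2500 UMIs were also added after seeing the data. Doublets were called with Scrublet in scanpy 1.11.5 and kept, except in an alternative. Python 3.11.15, scipy 1.17.1, R 4.3.3 and edgeR 4.0.16 (TMM factors only) were used, and the calculations were checked on simulated counts.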

Additional observations from a re-analysis of the deposited data

How the results depend on the processing

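No paired analysis was possible because each group had 1 library and the labels share no replicate numbers. Neuroblast shares below are for IL-4/C1q EV, IL-1a/TNFa/C1q EV, UT EV and MAPS. They were 1.22%, 0.935%, 1.12% and 5.68% with cells thinned to 1000 UMIs, 1.22%, 0.928%, 1.14% and 4.79% with at least 8 rule UMIs, 2.51%, 2.17%, 2.25% and 15.8% of Ptprc-free cells, and 1.49%, 1.19%, 1.22% and 4.204% without cells carrying markers of another class. They were 1.33%, 0.988%, 1.22% and 3.22% with at least 2500 UMIs. Requiring a Dlx UMI gave 1.25% in IL-1a/TNFa/C1q EV, and the UMI floor of that library gave 4.53% in MAPS. Each of these alternatives was run on all 4 libraries, and MAPS had the highest share under each. Only shares that moved from the main value are printed. Cycling shares of neuroblasts were 14.3%, 14.0% and 15.98% in IL-1a/TNFa/C1q EV, UT EV and MAPS after thinning, and 48.9%, 51.3%, 47.1% and 41.4% in the 4 libraries with at least 2500 UMIs.

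Counts of genes past 1.5-fold followed the filter on UMIs. For IL-4/C1q EV over UT EV, IL-1a/TNFa/C1q EV over UT EV and IL-4/C1q EV over IL-1a/TNFa/C1q EV they were 1236, 1348 and 1581 with at least 20 UMIs, 29, 48 and 63 with at least 200 UMIs, 92, 163 and 181 after thinning, and 167, 266 and 340 without cells carrying markers of another class. UT EV over MAPS gave 2922 with at least 200 UMIs and 2783 after thinning.

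List medians (log2) moved as follows, and the cause was not tested. For IL-4/C1q EV over UT EV, leaving out cells with markers of another class gave -0.0636 for the cytoskeleton and 0.0228 for immediate early genes, removing doublets gave 1.78 and leaving out cycling cells 0.68 for interferon response, and the mean of cells' CPM gave -0.0525 for heat shock. For IL-1a/TNFa/C1q EV over UT EV, GABA synthesis was 0.12 with a Dlx UMI required and -0.37 without cycling cells, cell cycle genes were -0.0333 without cells carrying markers of another class and -0.0766 by the mean of cells' CPM, and immediate early genes were -0.21 without cells carrying such markers. Receptors were -0.11 with a Dlx UMI required and 0.0373 with at least 2500 UMIs. For IL-4/C1q EV over IL-1a/TNFa/C1q EV, leaving out cycling cells gave 0.0232 for cell cycle genes and -0.97 for MHC class I, TMM factors gave 0.0569 for immediate early genes, and hypoxia genes were 0.11 both without doublets and by the mean of cells' CPM. The summed interferon ratio of IL-4/C1q EV over UT EV was 2.75 after thinning, 1.97 without cells carrying markers of another class and 1.99 without cycling cells. It was 1.11 for IL-1a/TNFa/C1q EV over UT EV after thinning, and for IL-4/C1q EV over IL-1a/TNFa/C1q EV 1.94 without cells carrying markers of another class and 2.19 by the mean of cells' CPM. Of the list medians, 354 stayed within the spread of the main value and 17 moved. Among single genes 2 reversed: Psmb8 in IL-4/C1q EV over UT EV was -0.18 without cycling cells, and B2m in IL-1a/TNFa/C1q EV over UT EV was -0.0504 after thinning.

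Depth limits what can be seen: the neuroblasts of an EV library held 585269 to 684550 UMIs in all, so cytokine receptors and most interferon genes were too sparse for a ratio, and with 1 library per group variation between animals could not be measured.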

Other observations

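Stress-related lists gave small values in neuroblasts. For IL-4/C1q EV over UT EV, the 13 measured immediate early genes had a median log2 ratio of 0.25. Of these, 2 were past 1.5-fold higher, against 4.55% of all genes. Without cells carrying markers of another class, 1 of 9 was past 1.5-fold higher, against 3.21% of all genes, and the median was 0.0228. Fos, a factor induced by activity and by dissociation, had 878 CPM in IL-4/C1q EV, 789 in IL-1a/TNFa/C1q EV, 822 in UT EV and 1335 in MAPS. Among p53 and integrated stress genes, 2 of 5 were past 1.5-fold higher in IL-1a/TNFa/C1q EV than in UT EV, against 3.78% of all genes, with a median of 0.45. They were Cdkn1a and Gadd45b, and Gadd45b had 36 UMIs in IL-1a/TNFa/C1q EV and 15 UMIs in UT EV, 60% of the 15 from 1 cell. Bax, a p53 target that promotes cell death, had 402 CPM in IL-4/C1q EV, 468 in IL-1a/TNFa/C1q EV, 419 in UT EV and 157 in MAPS. Of 10 heat shock and chaperone genes, 6 were higher in cycling than in other neuroblasts in all 4 libraries, against 18.9% of all genes measured there.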
